A study of Drosophila melanogaster with 3 samples.

Results

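Aminoacyl-tRNA synthetase genes were taken as the protein-coding genes of the Ensembl BDGP6 annotation whose name is an amino acid's abbreviation followed by RS, with -m added for the mitochondrial enzyme. The rule found 32 of 13945 protein-coding genes, 17 cytoplasmic and 15 mitochondrial. It used gene names and no measured value. It leaves out GluProRS and the genes of the cytoplasmic PheRS subunits, alpha-PheRS and beta-PheRS, whose names have another form; these are given with the other charging genes.

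The measurement was chromatin immunoprecipitation followed by sequencing (ChIP-seq) of CG2678, a zinc finger protein also named kipferl, in whole Drosophila melanogaster embryos of both sexes pooled, 0 to 24 h old. The embryos came from a single transgenic fly line carrying CG2678 with a C-terminal GFP tag, and the precipitation used an antibody to GFP. There were 3 biological replicates in 1 group, with no untagged or untreated group among the samples, so the reference for the synthetase genes is the set of all protein-coding genes in the same lists. The labels name neither the promoter of the transgene nor the cells that express it. Whole embryos of this age span mix many cell types and stages, so a peak present in few cells cannot be told apart from a weak peak in many.

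Each replicate had its own list of 30000 peaks, and a pooled list, from all replicates combined, also held 30000. A list of 9459 peaks had passed the authors' threshold on the irreproducible discovery rate (IDR). Those 9459 were exactly the 9459 strongest peaks of the pooled list, so the IDR and pooled lists are not separate evidence. A gene was counted when the summit of a peak, its highest point, was at most 500 bp from a transcription start site (TSS) of that gene. Peaks were ranked within a list by the authors' signal value, rank 1 being the strongest, and signals of different lists were not compared. The lists give no read counts, so the depth behind a peak is unknown and the 3 replicates are the only measure of error.

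An aminoacyl-tRNA synthetase joins an amino acid to its tRNA, which then carries it to the ribosome. The enzymes fall into class I and class II, which have unrelated catalytic folds, and most amino acids have a separate nuclear gene for the mitochondrial enzyme. In animals several cytoplasmic synthetases sit together in the multisynthetase complex with the scaffold proteins AIMP1, AIMP2 and AIMP3. In flies as in mammals, synthetase genes are known as targets of the amino acid stress factor ATF4, called crc in flies.

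Of the 32 synthetase genes, 8 had an IDR summit at a promoter, or 25.0%, against 22.5% of all protein-coding genes (3141 of 13945). The share of synthetase genes is near that background. In the pooled list it was 11 of 32, or 34.4%, against 34.1%. The 8 genes were SerRS, IleRS, ThrRS, AsnRS, GlyRS and AlaRS of the cytoplasmic set, and CysRS-m and ArgRS-m of the mitochondrial set. Their strongest promoter peaks had a median signal of 854 and a median rank of 2973 of 9459, against 818 and 2948 for the 3141 coding genes with such a peak. SerRS, IleRS and ThrRS had the strongest peaks of the family, with ranks of 537, 539 and 889. The distance that defines a promoter summit had a gap on both sides: by its strongest IDR summit ThrRS, at 194 bp, was the farthest inside it, and HisRS, at 809 bp, and LeuRS-m, at 903 bp, were the nearest outside. Within 1000 bp the count was 10 members (31.2%) against 26.6% of coding genes, within 250 bp 8 (25.0%) against 17.3%, and within 100 bp 4 (12.5%) against 6.62%.

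The DNA under the summits is shown for 6 of the 8 genes, because the base composition there is compared with that of other promoters. Sequences are from the RefSeq copy of the dm6 assembly, 5′ to 3′ on the strand of the synthetase gene, from 50 bp before to 50 bp after the summit. At AlaRS the printed stretch stops at the exon of the next gene. Capitals mark the word TATAAA, the word AAAAAA, the word AAATAT and the word TATCGATA, on either strand; the words of A and T alone can overlap each other.
IleRS (chr3L:22288433-22288533, plus strand): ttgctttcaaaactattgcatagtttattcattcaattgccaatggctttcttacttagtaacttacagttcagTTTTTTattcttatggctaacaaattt
ThrRS (chr2L:12103507-12103607, plus strand): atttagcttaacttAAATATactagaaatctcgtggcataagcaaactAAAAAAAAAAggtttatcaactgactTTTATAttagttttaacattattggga
AsnRS (chr2L:19132005-19132105, minus strand): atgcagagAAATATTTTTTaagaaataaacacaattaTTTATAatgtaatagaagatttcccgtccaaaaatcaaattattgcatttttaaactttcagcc
GlyRS (chr3L:15094914-15095014, plus strand): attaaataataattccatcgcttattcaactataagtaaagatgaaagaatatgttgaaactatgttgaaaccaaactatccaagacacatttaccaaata
AlaRS (chr2L:8381766-8381820, minus strand): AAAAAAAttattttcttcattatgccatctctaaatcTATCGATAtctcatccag
ArgRS-m (chr3R:7886898-7886998, plus strand): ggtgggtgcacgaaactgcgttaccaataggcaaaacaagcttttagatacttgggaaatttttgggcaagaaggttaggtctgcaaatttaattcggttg

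SerRS, which charges the serine tRNAs, lies on chromosome 2L at 3035493 to 3037403 on the minus strand. Its peak, at 3037160 to 3037614, had ranks of 402, 736 and 448 in replicates 1, 2 and 3. The IDR summit at 3037390 was 13 bp inside the gene, in its 5′ UTR, and the replicate summits lay at most 21 bp from it. A start of the neighbour CG17260 lies 8 bp upstream on the other strand, and the summit is also inside an intron of a longer CG17260 transcript. The peak was strong in every replicate, and its IDR summit was the only one of the 8 that was downstream of its gene's start.

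IleRS encodes the isoleucine enzyme, a class I synthetase of the multisynthetase complex (3L, 22288665 to 22292810). Its peak, at 22288134 to 22288722, had ranks of 463, 650 and 489 in replicates 1, 2 and 3, with an IDR signal of 2814. The summit lay 182 bp upstream of IleRS and 288 bp upstream of Hem, which encodes a subunit of the actin-regulating WAVE complex. Replicate summits were at most 9 bp from the IDR summit, the closest of the 8 genes. IleRS and SerRS had nearly equal ranks in the IDR list, and their order differed in replicate 2, where IleRS was ahead.

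ThrRS, the only threonine gene among the members (2L, 12103751 to 12107170), had a peak at 12103311 to 12103795 with an IDR signal of 2060. It ranked 692, 1264 and 714 in replicates 1, 2 and 3. The summit was 194 bp upstream of ThrRS and 272 bp upstream of Patsas, a protein of the palmitoyltransferase family. In each replicate ThrRS came after SerRS and IleRS and before the other members of the 8. Its sequence above holds an uninterrupted run of A close to the summit.

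AsnRS and GlyRS followed. AsnRS, the asparagine enzyme (2L, 19129469 to 19131954), ranked 1795, 2787 and 2486 in replicates 1, 2 and 3, with a signal of 1044 in the IDR list. It had 2 IDR summits within range, the stronger 101 bp upstream of AsnRS and the weaker, of rank 8228, 301 bp upstream of AsnRS and 68 bp from DCTN6-p27, a dynactin subunit gene. GlyRS, the only glycine gene (3L, 15095142 to 15097686), ranked 3356, 4056 and 4156 in the replicates with a signal of 664.2. Its summit was 178 bp upstream of GlyRS, 240 bp from the centrosomal gene Plp and 245 bp from sstn. A weaker summit in the 5′ UTR of GlyRS, 28 bp downstream of its start, was in the pooled list at rank 12756, outside the IDR list.

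AlaRS was the least even of the 8 genes. AlaRS, the alanine enzyme (2L, 8378262 to 8381764), had an IDR summit 52 bp upstream of its start with a signal of 524.3 and a rank of 4699. Its ranks were 3531 in replicate 1, 4605 in replicate 2 and 9837 in replicate 3, so it was just outside the 9459 strongest peaks of replicate 3. It was the only one of the 8 not matched in all replicates, a match being a summit within 100 bp among the 9459 strongest peaks of each. No other coding gene starts within 500 bp of this summit; the end of CG13392 lies on the far side of it.

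The mitochondrial members with an IDR promoter summit were the weakest of the 8 in the IDR list. CysRS-m, the mitochondrial cysteine enzyme (2R, 14159096 to 14161262), ranked 5328, 5297 and 4748 in replicates 1, 2 and 3, with an IDR signal of 505 and a summit 72 bp upstream of its start. ArgRS-m, the mitochondrial arginine enzyme (3R, 7887045 to 7890150), ranked 7084, 6043 and 4911, with a signal of 432.6 and a summit 97 bp upstream. The CysRS-m summit lay 96 bp from O-fut1, which encodes the O-fucosyltransferase that modifies Notch, and the ArgRS-m summit 215 bp from CG17816. Replicate 2 placed the ArgRS-m summit 77 bp from the IDR summit, the widest shift among the members matched in all replicates.

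**Figure D1:**
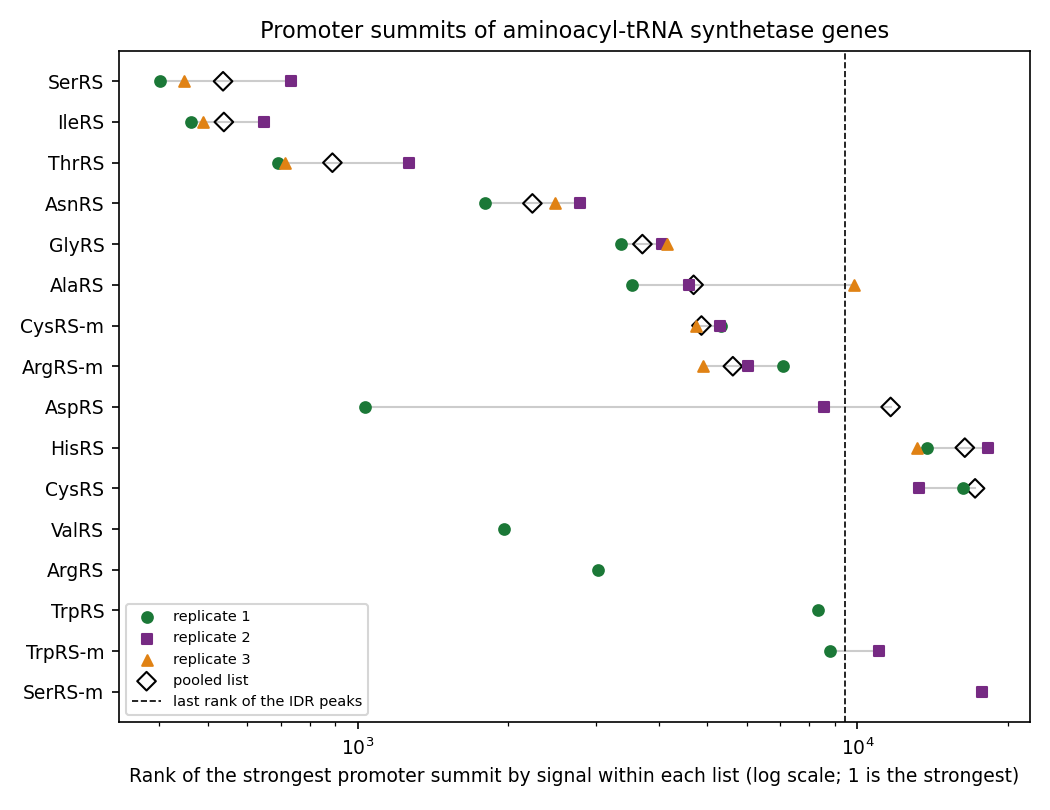
Ranks (x axis, log scale, 1 is the strongest) of the strongest promoter summit of the 16 synthetase genes (rows) with one in any list, in replicates 1 to 3 (filled symbols) and the pooled list (open diamonds). The first 8 rows lie left of the dashed line at rank 9459 in the pooled list; AlaRS passes it in replicate 3, and ValRS, ArgRS and TrpRS have a symbol for replicate 1 only.

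The other 24 members had no IDR summit within 500 bp of a TSS. AspRS, HisRS and CysRS had a weaker promoter summit in the pooled list, at ranks 11653, 16405 and 17201. Their signals were 180.9, 112.4 and 104.3, all below the lowest IDR signal of 237. The AspRS summit was at the edge of the window, 500 bp upstream of AspRS and 111 bp from Lfg. Another, of rank 11999, was 300 bp from AspRS and 128 bp from Lfg. The HisRS summit was 11 bp from both HisRS and Bx. ArgRS, ValRS, TrpRS, TrpRS-m and SerRS-m had a promoter summit in a replicate list but not in the pooled list. The remaining 16 had none in any list: GlnRS, LeuRS, LysRS, MetRS and TyrRS of the cytoplasmic set, and AlaRS-m, AsnRS-m, AspRS-m, GluRS-m, IleRS-m, LeuRS-m, MetRS-m, PheRS-m, ProRS-m, TyrRS-m and ValRS-m of the mitochondrial set. Thus 16 of 32 members had a promoter summit in at least 1 of the 5 lists, against 51.0% of all protein-coding genes.

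For these 24 genes the nearest IDR summit was at a median distance of 7046 bp, from 809 bp at HisRS to 28462 bp at IleRS-m. LeuRS-m had a strong peak just beyond the window: its summit was 903 bp from the start of LeuRS-m, in an intron of the dynein heavy chain gene Dhc64C, and ranked 311 in the IDR list and 328, 319 and 312 in replicates 1, 2 and 3. HisRS had IDR summits of rank 6337 and 8702 inside the gene, 809 bp and 2198 bp downstream of its start. Both also lie in an intron of Bx, which encodes a LIM-only protein and shares its start with HisRS, and the second is in coding sequence of HisRS. AspRS had an IDR summit of rank 4939 inside the gene, 1412 bp from the nearest of its starts, in an intron of AspRS and the 5′ UTR of the overlapping gene Nmda1. These summits cannot be assigned to a gene of an overlapping pair from their position.

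Replicate 1 held promoter peaks at synthetase genes that the other replicates lacked. Among the 9459 strongest peaks of each replicate, a promoter summit was found at 13 members in replicate 1 (40.6%), at 9 in replicate 2 (28.1%) and at 7 in replicate 3 (21.9%), against 29.5%, 23.2% and 21.7% of all protein-coding genes. The mean was 30.2% ± 9.55 for the members and 24.8% ± 4.13 for all protein-coding genes (SD, n = 3 each). ValRS, ArgRS and TrpRS ranked 1965, 3018 and 8327 in replicate 1. The ValRS and ArgRS summits, 280 and 197 bp from these genes, were nearer to Kdm4B (233 bp) and CG8578 (134 bp). The TrpRS summit was 55 bp from TrpRS and 60 bp from Vps16A. ValRS, ArgRS and TrpRS had no promoter summit in the whole list of either other replicate. That pattern held for 3 of 32 members, 9.38%, against 4.20% of all protein-coding genes (585), while the same count for replicate 2 was 0 members against 0.201%, and for replicate 3 was 0 members against 0.588%. Replicate 1 thus had the highest count over all coding genes too, and the part of that library in these peaks was not tested. In the whole lists of 30000 peaks, 15 members (46.9%) had a promoter summit in replicate 1, 13 (40.6%) in replicate 2 and 9 (28.1%) in replicate 3, against 43.9%, 37.0% and 33.5% of coding genes. Members with a promoter summit among the strongest peaks of every replicate numbered 7 (21.9%) against 16.8%, and those with an IDR promoter summit matched in all replicates 7 (21.9%) against 15.8%.

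AspRS also had a peak in replicate 1 alone. In replicate 1 its strongest promoter summit ranked 1032, inside introns of both AspRS and Nmda1. This summit lay 238 bp upstream of an internal start of AspRS and 184 bp from a start of Nmda1. The nearest summits of replicate 2, the pooled list and replicate 3 were 1154, 1174 and 1180 bp from that position. In replicate 2 the strongest AspRS promoter summit, of rank 8557, was instead 427 bp upstream of another start and 184 bp from Lfg. TrpRS-m ranked 8801 in replicate 1 and 11066 in replicate 2, with summits 10 bp apart, and had no promoter summit in replicate 3. SerRS-m had one in replicate 2 alone, at rank 17781.

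The cytoplasmic and mitochondrial genes were also counted apart, by the -m in the gene name alone. Gly, Thr, His, Lys and Gln have no -m gene, and whether their genes also serve mitochondria was not tested. An IDR promoter summit was present at 6 of 17 cytoplasmic members (35.3%) and at 2 of 15 mitochondrial members (13.3%), with the 22.5% of all coding genes between them. In the strongest peaks of replicates 1, 2 and 3 the cytoplasmic share was 58.8%, 41.2% and 29.4% (43.1% ± 14.8, SD, n = 3), and the mitochondrial share was 20.0%, 13.3% and 13.3% (15.6% ± 3.85, SD, n = 3). The cytoplasmic share was above the mitochondrial one in 3 of 3 replicates at this distance. With IDR summits counted within 100 bp the order turned, at 2 of 17 cytoplasmic members (11.8%) and 2 of 15 mitochondrial members (13.3%), against 6.62% of coding genes. The difference over genes was not tested, since the genes are few and the replicates share them. In the IDR list all 6 cytoplasmic peaks ranked ahead of both mitochondrial ones, with median signals of 1550 and 469, while in replicate 3 AlaRS ranked behind both.

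**Figure D2:**
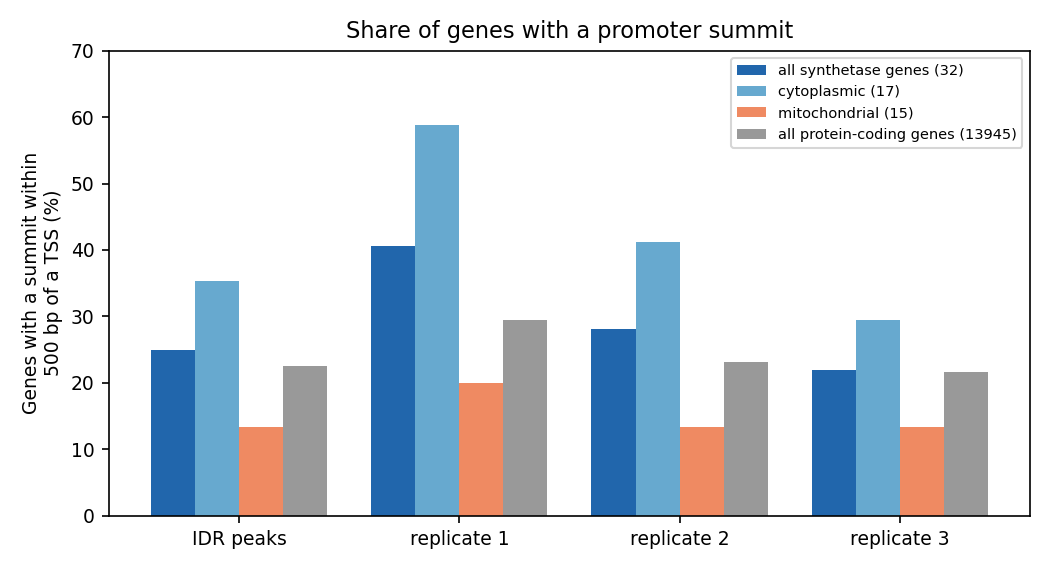
Share of genes (y axis, %) with a summit within 500 bp of a TSS among the IDR peaks and among the 9459 strongest peaks of each replicate, for all 32 synthetase genes, the 17 cytoplasmic and 15 mitochondrial ones, and all 13945 protein-coding genes. In each list the cytoplasmic bar is the highest and the mitochondrial bar the lowest; the bar of all synthetase genes is at 25.0% for the IDR peaks, near the 22.5% of all coding genes.

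The genes were also counted by amino acid. Of the 20 amino acids in the list, 12 had a cytoplasmic and a mitochondrial gene. An IDR promoter summit was present at the cytoplasmic gene alone for 4 (Ala, Asn, Ile and Ser), at the mitochondrial gene alone for 2 (Arg and Cys), at both for 0 and at neither for 6 (Asp, Leu, Met, Trp, Tyr and Val). With 4 of 12 cytoplasmic and 2 of 12 mitochondrial genes called, the 0 shared pairs are a count from which nothing is read. Of the 5 amino acids with a cytoplasmic gene only, Gly and Thr had a summit and Gln, His and Lys did not. The 3 with a mitochondrial gene only among the members, Glu, Phe and Pro, had none at that gene. Their cytoplasmic enzymes, GluProRS and the PheRS subunits, fall outside the naming rule. Of these, GluProRS had an IDR promoter summit, of rank 1009, and alpha-PheRS and beta-PheRS had none.

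By class, 5 of 14 class II genes (35.7%) and 3 of 18 class I genes (16.7%) had an IDR promoter summit, on either side of the 22.5% of all coding genes. Among cytoplasmic genes these were 5 of 8 class II genes, AlaRS, AsnRS, GlyRS, SerRS and ThrRS, and 1 of 9 class I genes, IleRS. Among the strongest peaks of replicate 1 the counts were 6 of 8 class II genes and 4 of 9 class I genes, among those of replicate 2 they were 6 of 8 and 1 of 9, and among those of replicate 3 they were 4 of 8 and 1 of 9, against 29.5%, 23.2% and 21.7% of coding genes. Among mitochondrial genes the order was the other way round, with an IDR promoter summit at 0 of 6 class II genes and 2 of 9 class I genes. Of the 7 cytoplasmic members that belong to the multisynthetase complex, ArgRS, AspRS, GlnRS, IleRS, LeuRS, LysRS and MetRS, only IleRS had an IDR promoter summit (14.3%), against 5 of the 10 other cytoplasmic members. Outside the complex these were 5 of 6 class II genes and 0 of 4 class I genes, and inside it 0 of 2 class II genes and 1 of 5 class I genes. The naming rule leaves some cytoplasmic genes out of both comparisons. alpha-PheRS and beta-PheRS, subunits of a class II enzyme, had no IDR promoter summit. Of the 4 complex genes outside the rule, GluProRS and the 3 AIMP genes, only GluProRS had one (25.0%). The counts are small, and no difference between them was tested.

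Most of these 8 peaks lay between divergent gene pairs. At 7 of the 8 genes, AlaRS being the exception, the IDR summit was within 500 bp of a start of another coding gene as well, against 45.9% of the 3141 coding genes with an IDR promoter summit. The synthetase gene was the gene of the nearest TSS in all 8 cases; of the 3141 coding genes with an IDR promoter summit, 2489 were the gene nearest to one. At IleRS, ThrRS, AsnRS, GlyRS, CysRS-m and ArgRS-m the summit stood between the starts, which were 470, 466, 369, 418, 168 and 312 bp apart. Of the 8 summits, 7 were upstream of the synthetase TSS (87.5%), against 83.3% of the coding genes with a peak, with a median summit position of -99 bp from the TSS against -153 bp.

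**Figure D3:**
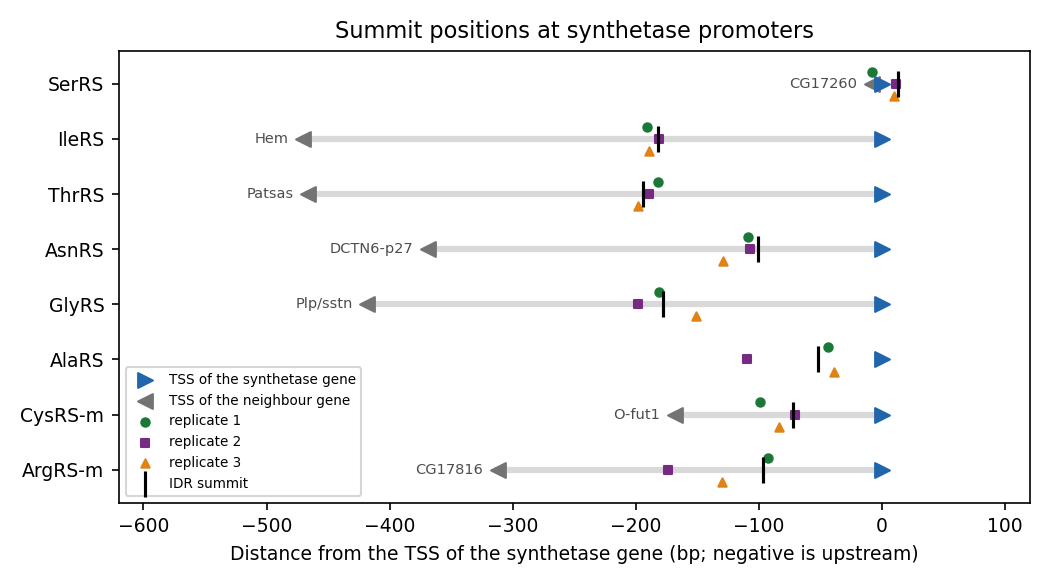
Position of the summits (x axis, bp from the TSS of the synthetase gene, negative is upstream) at the 8 synthetase genes with an IDR promoter summit, ordered by rank. Blue arrowheads mark the synthetase TSS and grey ones the nearest start of a neighbouring gene. Black bars are IDR summits, and coloured symbols are the strongest summits within 100 bp of them in each whole replicate list. AlaRS thus has a symbol for replicate 3, at rank 9837. The summit stands between the starts at 6 genes, and at AlaRS there is no neighbour within range.

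This arrangement was common among synthetase genes with and without a peak. A coding gene on the other strand started within 500 bp upstream of 20 of the 32 members (62.5%), against 27.4% of all protein-coding genes (3815 of 13945). Among members with such a head-to-head neighbour 7 of 20 had an IDR promoter summit (35.0%), against 34.8% of all coding genes with one. Of the 12 members without such a neighbour 1 had a summit (8.33%), against 17.9% of all coding genes without one. By compartment, 5 of 13 cytoplasmic members with such a neighbour (38.5%) and 1 of 4 without had a summit, and 2 of 7 mitochondrial members with one (28.6%) and 0 of 8 without. A head-to-head neighbour was thus present at 13 of 17 cytoplasmic and 7 of 15 mitochondrial members, and its part in the difference between their shares was not tested. Head-to-head members with no IDR promoter summit included GlnRS beside RIOK2, LeuRS beside CG17593, TrpRS beside Vps16A and TyrRS beside CG33158. With neighbours counted to 1000 bp a summit was present at 7 of 22 members with one (31.8%) and at 1 of 10 without, against 33.4% and 16.3% of coding genes.

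**Figure D4:**
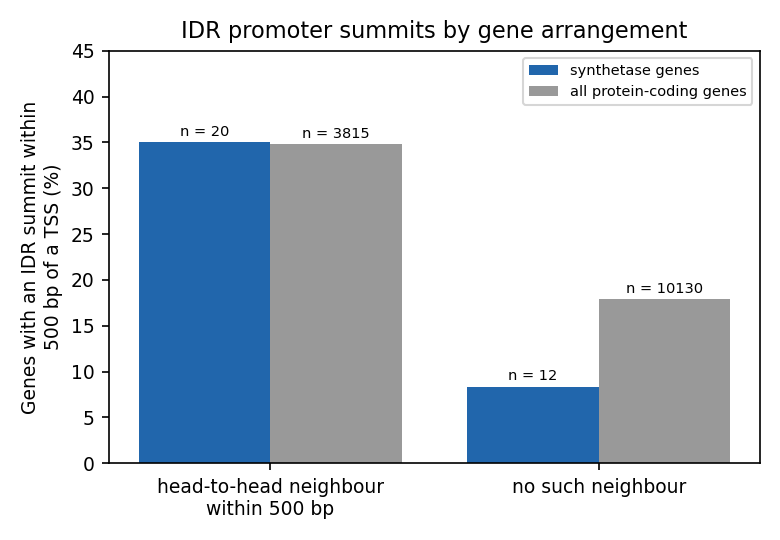
Share of genes (y axis, %) with an IDR promoter summit for synthetase genes (blue) and all protein-coding genes (grey), with and without a coding gene that starts within 500 bp upstream on the other strand; n is the number of genes. The bars are at 35.0% and 34.8% for genes with such a neighbour and at 8.33% and 17.9% for genes without.

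The summits of 7 of the 8 genes lay in sequence poorer in GC than its surroundings. GC content within 50 bp of the summit was 24.8% at SerRS, 27.7% at IleRS, 24.8% at ThrRS, 23.8% at AsnRS, 25.7% at GlyRS, 25.7% at AlaRS, 14.9% at CysRS-m and 41.6% at ArgRS-m. Windows of the same length centred 300 bp to either side had 55.0%, 41.1%, 41.6%, 38.1%, 42.1%, 52.0%, 52.5% and 40.6% in the same order of genes. ArgRS-m, the weakest of the 8 by rank, was the only one whose summit was not lower in GC than its flanks. The median was 25.2% at the strongest summits of the 8 members, against 31.7% at all 2983 IDR summits of coding promoters. Of those 2983, 74.3% were lower than their flanks. Here and for the words counted at summits below, each member has only its strongest IDR summit. The 2983 are all IDR summits in range of a coding gene and were not limited in that way.

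**Figure D5:**
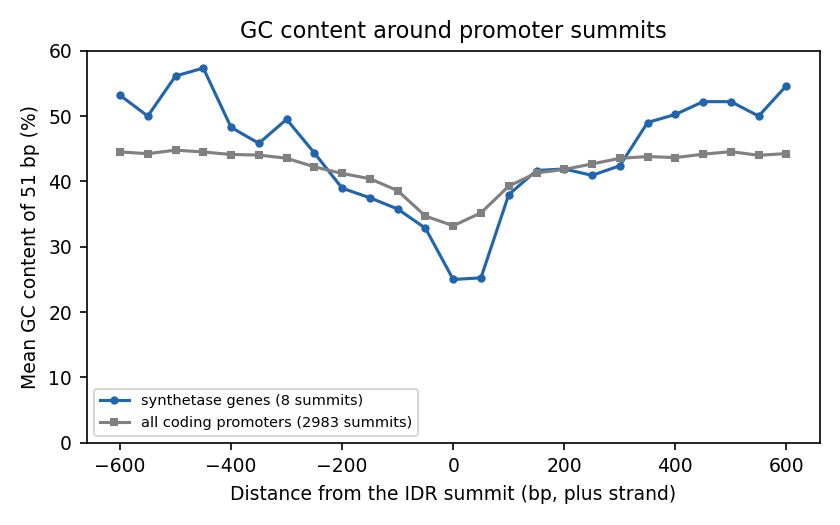
Mean GC content (y axis, %) of windows of 51 bp at distances from the IDR summit (x axis, bp, plus strand) for the 8 synthetase summits (blue) and the 2983 IDR summits at coding promoters (grey). Both curves are lowest at or next to the summit, at 25.0% for the synthetase genes and 33.2% for all coding promoters.

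The same words of A and T recurred at these summits. TATAAA and AAATAT were each present within 50 bp of the summit at AlaRS, AsnRS, CysRS-m, SerRS and ThrRS, 5 of 8, against 24.4% and 36.6% of all IDR summits at coding promoters. AAAAAA was present at those genes and at IleRS, 6 of 8, against 27.7%. The TATAAA of AlaRS runs across the edge of the stretch printed above, and its AAATAT lies beyond that edge, in the exon of CG13392. These words hold no G or C, and they were not tested apart from the low GC content. TATCGATA, the word bound by the promoter factor Dref, was present at AlaRS alone, against 1.84% of summits. TCAGT, an initiator word, was present at IleRS, SerRS and ThrRS, against 16.3%. GAGG and GGGG were at 0 of 8, against 19.6% and 15.4%, and so were the Zelda word CAGGTA, against 1.31%, the E-box CACGTG, against 0.905%, and GGTCACAC, against 0.972%. All words were searched on both strands.

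Words were also counted over the whole promoters, from 250 bp before to 50 bp after the 5′-most TSS of each gene. TATAAA was present at 18 of 32 members (56.2%) against 45.8% of coding promoters, and AAAAAA at 22 (68.8%) against 50.4%. AAATAT was at 59.4% against 53.7%, TCAGT at 56.2% against 51.5% and GAGG at 53.1% against 56.9%. GGGG, at 28.1% against 44.6%, and GAGAG, at 18.8% against 29.7%, were below the background. CAGGTA was at 9.38% against 6.24%, and CACGTG at 6.25% against 4.20%. TATCGATA was present at 5 members, AlaRS, ArgRS, IleRS, PheRS-m and TrpRS (15.6%), against 9.36%. GGTCACAC, the word of the promoter factor M1BP, was present at 4, AsnRS-m, AspRS-m, GlnRS and ProRS-m (12.5%), against 7.70%. The ATF4 word TGATGNAA was found in 1 member promoter, that of CysRS (3.12%), against 4.07% of coding promoters, and its form TGATGCAA in 0 against 0.817%. Median GC content was 34.5% in the promoters of the 8 members with an IDR summit and 35.8% in those of the other 24, against 38.0% over all coding promoters.

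Genes that work with the synthetases but fall outside the naming rule were counted in the same way. Of 12 other charging genes 4 had an IDR promoter summit (33.3%), against 22.5% of all coding genes. Counted only for the gene of the nearest TSS they were 2 of 12 (16.7%), against 17.8%. GluProRS, the bifunctional enzyme for glutamate and proline in the multisynthetase complex, had an IDR signal of 1899 for its peak at 23958300 to 23958757 of 3R, which ranked 890, 1333 and 784 in replicates 1, 2 and 3. Its summit was 134 bp from GluProRS and 126 bp from AP-1sigma, a clathrin adaptor subunit gene. GatA, a subunit of the amidotransferase that completes glutamine tRNA in mitochondria, ranked 2028, 1847 and 1630, with a summit 97 bp from GatA and 23 bp from P5cr. Slimp, a mitochondrial protein related to seryl-tRNA synthetase, ranked 5423, 6519 and 6381. SecS, of the selenocysteine pathway, ranked 3517 and 3665 in replicates 1 and 2 and had no promoter summit in replicate 3, with its IDR summit 148 bp from SecS and 149 bp from kra. alpha-PheRS and beta-PheRS, the 3 AIMP genes, GatB, GatC and Dtd had no promoter summit in the IDR list, though alpha-PheRS ranked 4782 in replicate 1.

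Genes of tRNA maturation were a further list. An IDR promoter summit was present at 5 of the 29 that matched a gene name (17.2%), against the same 22.5%. Counted only for the gene of the nearest TSS they were 3 of 29 (10.3%), against 17.8%. The order differed between lists. In the whole lists of replicates 1, 2 and 3 a promoter summit was present at 69.0%, 41.4% and 27.6% of them. The shares of all coding genes in those lists were 43.9%, 37.0% and 33.5%. Trmt6 and Trmt61, the subunits of the tRNA methyltransferase that makes N1-methyladenosine, ranked 415 and 1392 in the IDR list, with signals of 3304 and 1514. Archease, a cofactor of tRNA ligation, and La, which binds new transcripts of RNA polymerase III, ranked 2219 and 4140. La was uneven, with ranks of 3787, 4841 and 24660 in replicates 1, 2 and 3. The Trmt61 summit was 195 bp from Trmt61 and 34 bp from the ribosomal protein gene RpL34a.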

How the data were processed

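The authors' deposited lists were used as they stand: 5 narrowPeak lists on dm6, per the file descriptions deposited beside them, with a signal value, a −log10 q-value and a summit offset for each peak. Replicate and pooled peaks were called against a control library, which was not analysed here; the IDR list was derived from the replicate and pooled lists. No aligner or peak caller is named in the labels or descriptions. The authors' −log10 q-value reached at most 4.32 in any list and was not used for ranks. Gene models were Ensembl release 115, and sequences were read from the RefSeq copy of the assembly. Summits are the deposited start plus offset, written 1-based. Counts, shares and medians were computed in Python 3.11.15 with pandas 2.3.3; the window search was tested on simulated peaks. The labels call the replicates biological but do not say how the embryo collections were kept apart, so their spread may be technical.

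Genes were chosen by name; every member is accounted for, with full values for members with an IDR promoter summit. Members and lists were chosen with earlier results of these data known, and the head-to-head comparison was added after the lists had been opened. No test over genes was made. Of the lists, 1 of 13 charging and 6 of 35 maturation symbols had no match, and the values of 1 maturation gene are not reported here.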

Additional observations from a re-analysis of the deposited data

How the results depend on the processing

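The count of 8 members with an IDR promoter summit (25.0% against 22.5% of coding genes) was also 8 with 250 bp around the TSS (against 17.3%), the 5′-most TSS (19.9%), only the gene of the nearest TSS (17.8%), the strongest summit of each merged interval (22.3%) and any base of the peak (24.3%). It was 10 with 1000 bp (HisRS and LeuRS-m added, against 26.6%), 11 in the pooled list (34.1%) and 6 in the 4730 stronger IDR peaks (15.1%). It was 7 when matched in all replicates (15.8%). With 1 replicate at a time left out of that match, and the IDR list not rebuilt, it was 7 to 8 members (16.8% to 18.3%). With 100 bp (6.62%) it was 4 members, 2 cytoplasmic and 2 mitochondrial, AsnRS being just outside at 101 bp. The 2 mitochondrial genes were absent (0) from the 4730 stronger IDR peaks, and in matches to as many strongest peaks per replicate the count was also 0; with a match within 50 bp it was 1. The mean mitochondrial share of 15.6% was 22.2% with 1000 bp, 20.0% with all peaks of each replicate list and 0.00% with the 4730 strongest. Without each replicate the mean member share ran from 25.0% to 34.4%, the cytoplasmic share from 35.3% to 50% and the mitochondrial share from 13.3% to 16.7%. Of the alternatives run, 66 stayed within 1.5 times the count or 1 SD of the share, and 8 did not. No paired analysis was possible because there was 1 group. Read depth is unknown, so absence from a list does not show absence of binding.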
